A study of Mus musculus with 6 samples.

Results

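The iron handling genes described here are 10 named genes, Fth1, Ftl1, Tfrc, Slc40a1, Slc11a2, Ireb2, Aco1, Ncoa4, Hmox1 and Steap3, chosen by name from the 30142 genes that the arrays name one by one. All 10 had a probe whose annotation names no other gene symbol. They were read on 6 Clariom D Mouse arrays, 3 of platelets isolated from mouse blood and 3 of bone marrow cells labelled megakaryocyte progenitors. The treatments were PBS (the control), CTC41-EVs and CTC41.5G-EVs, with 1 array for each in either cell type. EVs commonly abbreviates extracellular vesicles, particles shed by cells, and the labels do not explain the names CTC41 and CTC41.5G. The sources used here do not give the strain, sex, age or number of the mice, nor the dose, route and time of treatment. Cells of a group's mice were pooled before RNA extraction, so each group is 1 array with no replicate. Per the labels' protocols, pools either went straight to RNA isolation or passed a magnetic bead step against white and red blood cells, and the labels do not say which pools did.

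Iron enters most blood cell precursors as transferrin bound to the transferrin receptor, is reduced by a STEAP reductase inside the endosome and leaves it through the divalent metal transporter. Iron that is not used at once is stored in ferritin, a hollow shell of heavy and light subunits, and is recovered when NCOA4 carries ferritin to the lysosome. Iron regulatory proteins bind stem loops in the messenger RNAs of ferritin, the transferrin receptor, ferroportin and others, so that much of the control lies in translation and RNA stability. An array measures RNA only and does not show translation. Platelets have no nucleus and carry RNA that they received from megakaryocytes.

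Values are log2 signals as deposited. The median over all probes lay between 4.0 and 4.05 on the platelet arrays and between 4.38 and 4.45 on the progenitor arrays. The test took genes with a 6-array mean at or above 4.23, the median over probes, called the floor here. Below it a signal was taken as not separated from background, though the floor is not a measured background. The median of 1083 olfactory receptor genes lay between 3.07 and 3.12 on the platelet arrays. On the progenitor arrays it lay between 3.77 and 3.86. Of the 10 genes, 8 passed the floor, and Tfrc and Ireb2 did not. In platelets the platelet markers Pf4 and Ppbp stood at 12.72 ± 0.35 and 12.43 ± 0.34 (SD, n = 3). In progenitors the megakaryocyte integrin gene Itga2b stood at 6.51 ± 0.07 and the progenitor receptor gene Kit at 6.03 ± 0.21, but the neutrophil precursor genes Ngp, Camp and Mpo stood at 8.76, 8.66 and 8.12. Itga2b was the highest there of the 13 platelet markers with a probe. Of these 13, 11 reached the floor in progenitors, and Clec1b and P2ry12, at 3.95 and 3.72, did not. Of the other stem and progenitor markers, Gata2 and Cd34 had means of 6.19 and 5.80 in progenitors, Flt3 had 4.53 and Mecom, at 4.01, was below the floor. Slamf1 of the same list was 30.8-fold higher in platelets, at 9.53 against 4.59. In pooled bulk samples, fewer cells of a type and less RNA per cell cannot be told apart.

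The first comparison asked how iron handling transcripts differed between platelets and progenitors. Both ferritin subunit genes and Ncoa4 were far higher in platelets, by 4.54-fold to 9.94-fold. As deposited, the others of the 10 genes that passed the floor, of iron uptake, export, regulation and haem breakdown, differed by 1.77-fold at most. Tfrc and Ireb2 failed the floor and were not among them. In limma, a call needed both a difference of 1.5-fold or more and an adjusted p (Benjamini-Hochberg) no higher than 0.05. Of the 8 genes tested, 3 were called higher in platelets, 2 were called lower and 3 were not called. Over all 18875 genes tested the percentage called was 16.2 higher and 25.7 lower, 41.9 in either direction. The arrays of the cell types did not overlap for any of the 8 genes, as for 78.4 percent of all genes tested. The median difference of the 8 genes was -0.06 on the log2 scale, against -0.26 over all genes.

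Fth1 encodes the heavy subunit of ferritin, which oxidises iron as it enters the shell. Its log2 signal in platelets was 8.21 with PBS, 8.47 with CTC41-EVs and 9.09 with CTC41.5G-EVs. In progenitors it was 5.57, 5.06 and 5.20 in the same order. The lowest platelet array thus lay above the highest progenitor array, and the platelet array with CTC41.5G-EVs was the highest of all. The means were 8.59 ± 0.45 (SD, n = 3) and 5.28 ± 0.26, a log2 difference of 3.31 with SE 0.23, or 9.94-fold (limma, adjusted p = 2.41e-05). Of all genes tested, 1.27% differed upwards by at least as much.

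Ftl1 encodes the light subunit, which promotes the growth of the iron core. It stood at 9.61, 9.65 and 10.08 on the platelet arrays with PBS, CTC41-EVs and CTC41.5G-EVs. The progenitor arrays had 6.87, 7.11 and 7.35. Again no platelet array overlapped with a progenitor array, and in both cell types the array with CTC41.5G-EVs was the highest. The means of 9.78 ± 0.26 and 7.11 ± 0.24 (SD, n = 3) differed by 2.67 with SE 0.17, or 6.37-fold (limma, adjusted p = 1.64e-05). The Ftl1 probe is annotated with 3 gene identifiers, one of them that of the pseudogene Ftl1-ps2, so the transcripts of near-identical copies cannot be assumed to be separated.

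Another pair of probes names Ftl1 together with other genes. One of them names Ftl2 and microRNA genes of the Mir692 family, had the highest mean of the 3 probes, and stood at 11.14 ± 0.26 in platelets and 7.36 ± 0.53 in progenitors (SD, n = 3), a log2 difference of 3.78. The probe that names Ftl1 and Mir692-2b stood at 11.09 ± 0.21 and 7.07 ± 0.50, a difference of 4.02. All 3 probes placed platelets above progenitors, by differing amounts. Each is annotated with 3 gene identifiers, so they cannot be taken as independent readings.

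The ferritin genes were called together in 1 direction, so the sequences before their start sites are shown. RefSeq sequences of build GRCm38.p6 covered 7 of the 10 genes, with 14 annotated starts, and Hmox1, Slc40a1 and Slc11a2 had no entry. The 250 bases before each start were searched on both strands for CCAAT, the box bound by NF-Y, which reads ATTGG on the opposite strand, and for TGACNNNGC, the core of the antioxidant response element. The lines give the 150 bases before the inner of the 2 annotated starts of Fth1, at chr19:9982496-9982645 on the plus strand, and before the start of Ftl1, at chr7:45459887-45460036 on the minus strand. They run 5′ to 3′ along the gene's strand, and capitals mark the CCAAT box, here read as ATTGG.
Fth1: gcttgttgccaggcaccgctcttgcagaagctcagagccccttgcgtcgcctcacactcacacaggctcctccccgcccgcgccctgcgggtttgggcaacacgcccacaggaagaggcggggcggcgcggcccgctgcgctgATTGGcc
Ftl1: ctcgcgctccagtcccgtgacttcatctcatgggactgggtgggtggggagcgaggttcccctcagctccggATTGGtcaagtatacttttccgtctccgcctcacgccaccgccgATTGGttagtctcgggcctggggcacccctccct
The match begins 7 bases before the Fth1 start, and the matches of Ftl1 begin 78 and 34 bases before its start. The outer start of Fth1 had no match. CCAAT was present before 4 of the 14 starts, 1 each of Fth1, Ftl1, Tfrc and Steap3, and in 33.8% of all 32851 RefSeq windows of that length. TGACNNNGC was present before 1 of the 14 starts, of Ncoa4, and in 10.2% of all windows. These matches describe the letters only.

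Ncoa4 encodes the receptor that delivers ferritin to the lysosome, where its iron is released. It stood at 7.45, 7.33 and 7.44 on the platelet arrays and at 5.15, 5.29 and 5.24 on the progenitor arrays, the treatments ordered as above. The 3 arrays of each cell type lay close together and the cell types did not overlap. The difference was 2.18 with SE 0.12, or 4.54-fold (limma, adjusted p = 7.52e-06).

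Aco1 and Ireb2 encode the iron regulatory proteins, the first of which doubles as the cytosolic aconitase. Aco1 stood at 5.33, 5.39 and 5.38 in platelets and at 5.20, 5.27 and 5.18 in progenitors. The arrays did not overlap, but the difference of 0.15 (SE 0.08) was not called (limma, adjusted p = 0.142). Ireb2 lay between 2.85 and 2.99 in platelets and between 2.79 and 2.97 in progenitors, so all 6 arrays were below the floor and the cell types overlapped. Without the floor its difference was 0.04 with SE 0.10 (limma, adjusted p = 0.73).

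**Figure D1:**
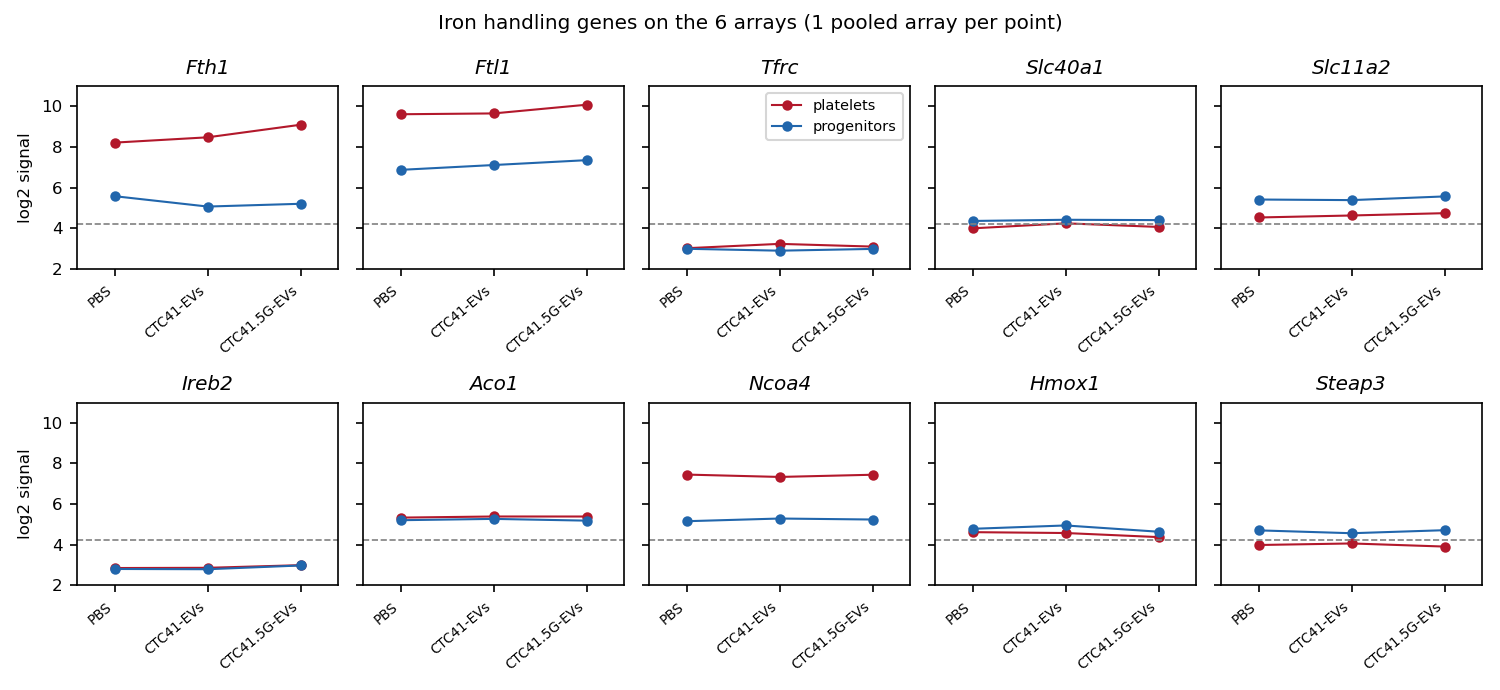
Log2 signal of each of the 10 iron handling genes on the 6 arrays, platelets in red and progenitors in blue, with the treatments along the x axis. Each point is 1 pooled array, lines only join the arrays of a cell type, and the dashed line is the floor of 4.23. Fth1, Ftl1 and Ncoa4 show a wide gap between the cell types, while all Tfrc and Ireb2 points lie under the floor.

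Tfrc encodes the transferrin receptor, the main route of iron uptake in dividing blood precursors. Its signal was 3.01, 3.23 and 3.09 in platelets and 2.98, 2.89 and 2.98 in progenitors, under the floor on all 6 arrays. Without the floor the difference was 0.16 with SE 0.11 (limma, adjusted p = 0.251). At this signal the arrays did not separate Tfrc from background in either cell type.

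Steap3, the ferrireductase of the transferrin cycle in erythroid precursors, stood at 3.98, 4.06 and 3.90 in platelets and at 4.70, 4.56 and 4.71 in progenitors. The platelet arrays were all lower and all under the floor. The difference was -0.68 with SE 0.10 (limma, adjusted p = 0.000953), and -0.43 measured from the floor, which is under 1.5-fold. Slc11a2, the divalent metal transporter that takes iron out of the endosome, stood at 4.52, 4.62 and 4.74 in platelets and at 5.41, 5.38 and 5.56 in progenitors. Its difference was -0.82 with SE 0.08, or 1.77-fold lower in platelets (limma, adjusted p = 0.000109).

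Slc40a1 encodes ferroportin, the cellular iron exporter. It stood at 3.99, 4.24 and 4.06 in platelets and at 4.35, 4.41 and 4.39 in progenitors, close to the floor throughout. Hmox1, the inducible haem oxygenase that frees iron from haem, stood at 4.61, 4.57 and 4.37 in platelets and at 4.78, 4.94 and 4.64 in progenitors. Neither gene overlapped between the cell types. Their differences of -0.29 (SE 0.10, limma, adjusted p = 0.0347) and -0.27 (SE 0.09, limma, adjusted p = 0.0252) were below 1.5-fold and were not called.

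The calls of Slc11a2 and Steap3 as lower depended on how arrays were scaled, and the calls of Fth1, Ftl1 and Ncoa4 as higher did not. As deposited, all genes had a median difference of -0.26. Quantile normalization moved it to 0.05, scaling to equal medians to 0.11, and centring on the signals of 1083 olfactory receptor genes to 0.45. Fth1 ranged from 3.31 to 4.03, Ftl1 from 2.67 to 3.39 and Ncoa4 from 2.18 to 2.90 over these settings, called in each. Slc11a2 was -0.50, -0.45 and -0.11 in the 3 rescaled settings and was not called in any of them. Steap3 was -0.30 and -0.30 and then changed sign, to 0.04. Slc40a1 and Hmox1 changed sign in all 3, to at most 0.43 and 0.45. Aco1 reached 0.87 and was called with olfactory centring. Relative to the median of all genes as deposited, Fth1, Ftl1 and Ncoa4 stood 3.58, 2.93 and 2.45 higher, Aco1 0.41 higher, Slc11a2 and Steap3 at -0.56 and -0.42, and Slc40a1 and Hmox1 at -0.03 and -0.01.

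**Figure D2:**
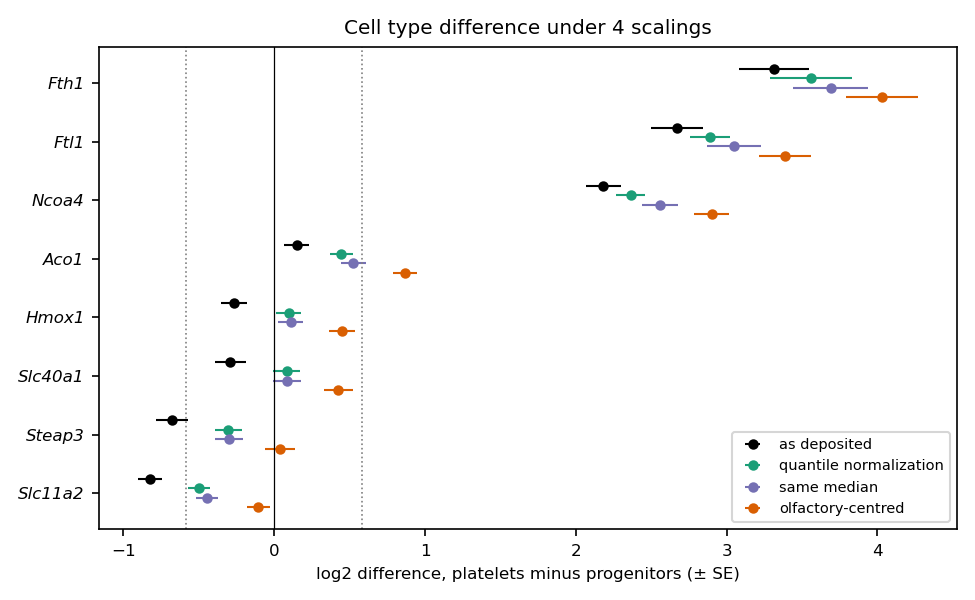
Log2 difference between platelets and progenitors (x axis) for the 8 genes that passed the floor, with bars of 1 SE from the limma fit, under 4 scalings given by colour. Dotted lines mark 1.5-fold in either direction. Fth1, Ftl1 and Ncoa4 stay above 2 in every scaling, and the small differences of the other genes shift to the right and in part across 0.

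Beside the ferritin result, markers of other blood cells also differed between platelets and progenitors. Over all genes tested 16.2 percent were called higher in platelets and 25.7 percent lower. Of 14 erythroid markers tested, 5 were called higher in platelets and 0 lower (limma). Alas2, the erythroid enzyme of haem synthesis, stood at 9.85 against 5.10, Slc4a1, the red cell anion exchanger, at 7.85 against 5.69 and Tal1 at 6.54 against 5.36. Other erythroid markers went the other way without a call. Epor and Tspo2 were at -0.22 and -0.44, and Ermap, Rhd and Add2 at -0.20, -0.26 and -0.28. The summed linear signal of the 15 erythroid markers with a probe ran from 1661 to 1786 on the platelet arrays and from 545 to 573 on the progenitor arrays. Alas2 and Slc4a1 made up most of this gap, and without them the other 13 summed to 567 to 592 against 461 to 484. No marker was at 0, and 14 of the 15 reached the floor in platelets and 14 in progenitors. Of 11 macrophage and monocyte markers tested, 2 were called higher and 1 lower, and the lysozyme gene Lyz2 stood at 9.91 in platelets and 6.97 in progenitors. The summed signal of the 17 macrophage and monocyte markers was 1341 to 1470 against 597 to 615. Lyz2 alone made this difference, since the other 16 summed to 429 to 475 in platelets and 466 to 491 in progenitors. Spic, Timd4, Mertk, Vcam1, Mrc1 and Ccr2, of which the first marks the iron-recycling macrophage, failed the floor. Of the 16 neutrophil markers 0 were called higher and 11 lower in platelets, with sums of 629 to 751 against 2025 to 2298. The part of any of these cells in the ferritin and Ncoa4 signals was not tested.

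Beyond the 10 genes, 5 lists of other iron and haem genes held 76 genes, of which 71 had a probe of their own and 57 passed the floor. Of these 57, 15 were called higher in platelets, 11 lower and 31 not called, with a median difference of -0.04. The split was 17 to 3 after quantile normalization, 18 to 2 with equal medians and 34 to 1 with olfactory centring. Over all genes the corresponding splits were 3063 higher to 4854 lower as deposited, then 4140 to 2282, 4673 to 1911 and 7609 to 1033. The first of these is 16.2 percent higher and 25.7 percent lower of the 18875 genes tested.

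Genes of ferritin loading and of the control of iron regulatory proteins were called in 1 direction as deposited, 5 of 11 tested higher and 0 lower, with a median of 0.57. Over all genes tested 16.2 percent were called higher and 25.7 percent lower. Tax1bp1, an autophagy receptor that takes part in ferritin turnover with NCOA4, was higher by 2.22 (SE 0.10), or by 2.03 from the floor since its progenitor mean of 4.04 lay below it. Pcbp2, an iron chaperone, was higher by 1.97 (SE 0.12), and its relative Pcbp1, which delivers iron to ferritin, by 0.57, just under 1.5-fold and not called. Their relatives Pcbp3 and Pcbp4 went the other way, at -0.52 and -0.57, also under 1.5-fold and not called. Epas1, the hypoxia factor whose messenger RNA is a target of iron regulatory proteins, was higher by 1.56 (SE 0.13). Skp1a and Cul1, subunits of the ligase that degrades the product of Ireb2, were higher by 1.01 and 1.03, while Fbxl5, its iron-sensing subunit, failed the floor with 3.36 and 3.03. Of the genes of the 5 lists described here as called, Glrx5 had the highest adjusted p, 0.0151 (limma).

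Mitochondrial iron and iron-sulphur cluster genes were called higher in 5 of 16 cases and lower in 2, with a median of 0.02. The shares over all genes tested were 16.2 percent higher and 25.7 percent lower. Slc25a37, the mitochondrial iron importer mitoferrin of erythroid cells, stood at 8.19 ± 0.05 in platelets and 5.24 ± 0.18 in progenitors (SD, n = 3), a difference of 2.95. The cluster assembly genes Hscb and Isca1 were higher by 2.49 (SE 0.12) and 1.99 (SE 0.12), and Iscu and Glrx5 by 0.93 and 0.80. Iba57, a late-acting assembly factor, and Abcb8, a mitochondrial transporter, were called lower at -0.73 and -0.66. Abcb8 changed sign with olfactory centring, to 0.06, and neither gene was called in the other scalings.

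Of 14 tested genes of haem transport and breakdown, 3 were called higher and 2 lower, with a median of -0.09. The background for each list in this paragraph is 16.2 percent of all genes tested higher and 25.7 percent lower. Bach1, the haem-sensing repressor of Hmox1, was higher by 1.82 (SE 0.10), Blvrb, a biliverdin reductase, by 1.35 (SE 0.13) and Slc48a1, a haem transporter of endolysosomes, by 1.18 (SE 0.14). Slc46a1, of the same list, was lower at -0.75 (SE 0.08). Of 10 tested uptake and reduction genes, 2 were called higher, among them the ferric reductase gene Cybrd1 (1.04, SE 0.11), and 4 lower. Lcn2, a siderophore-binding protein of neutrophil granules that is also a neutrophil marker, was lower at -1.75 (SE 0.09), and its receptor gene Slc22a17, the importer gene Slc39a14 and the transferrin receptor relative Tfr2 were lower at -0.74, -0.76 and -0.65. Of 6 systemic regulators tested, 0 were called higher and 3 lower, the hepcidin genes Hamp (-1.16, SE 0.11) and Hamp2 (-0.83, SE 0.13) and the erythroferrone gene Erfe (-0.66, SE 0.09). Lcn2 was called lower in all scalings and Hamp in all but olfactory centring. Hamp2 kept its call after quantile normalization and lost it with equal medians (-0.46) and with olfactory centring (-0.12). In contrast, Slc46a1, Slc22a17, Slc39a14, Tfr2 and Erfe were called as deposited only, and Tfr2 and Erfe changed sign with olfactory centring.

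**Figure D3:**
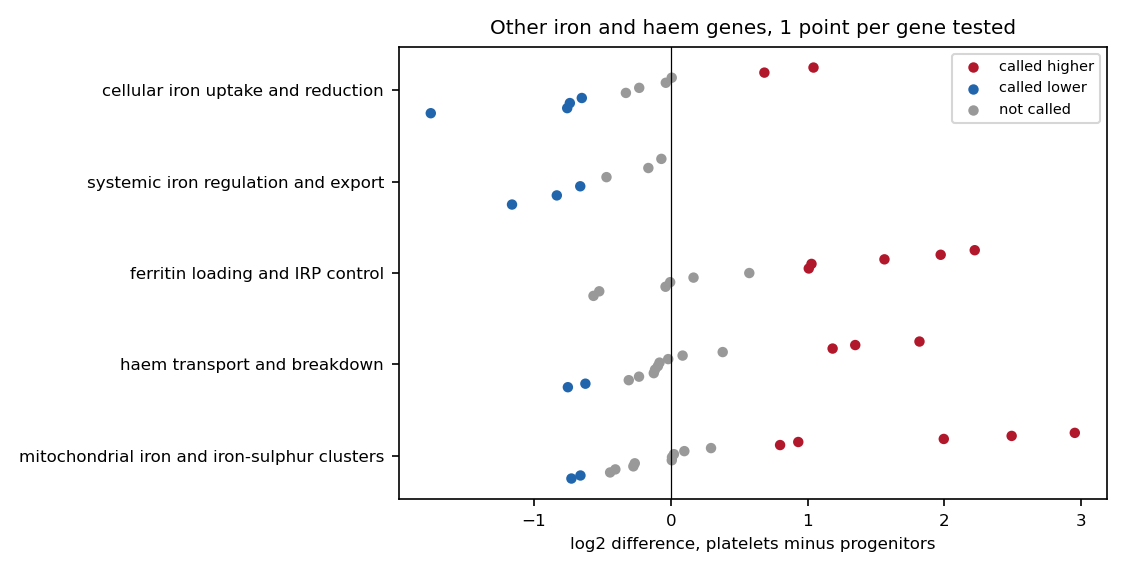
Log2 difference between platelets and progenitors (x axis) for the 57 genes of 5 further iron and haem lists that passed the floor, 1 point per gene, with values as deposited. Red points were called higher, blue lower and grey not called. All called genes of the ferritin loading list lie to the right of 0 and all called systemic regulators to the left.

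The next comparisons asked how the genes differed after treatment with EVs. Within a cell type each is 1 array against 1 array, so there is no test and no error, and both EV comparisons share the PBS array. A gene was counted as past the fold at 1.5-fold or more, provided its mean in that cell type was at or above 5.07, the 75th percentile over probes. Fth1, Ftl1, Aco1 and Ncoa4 reached this level in platelets, and these and Slc11a2 in progenitors.

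In platelets, Fth1 was higher with CTC41.5G-EVs than with PBS by 0.88 on the log2 scale, or 1.84-fold, the 1 gene of the 4 past the fold. Over the 8247 genes at that level the percentage past it was 0.643 higher and 1.31 lower, 1.95 in all, and 0.109% of these genes were higher by at least as much as Fth1. With CTC41-EVs Fth1 was 0.26 above PBS, with 0 of the 4 genes past the fold, against 0.449 percent of all genes higher and 2.34 percent lower, 2.79 in all. Between the EV types Fth1 was 0.62 higher with CTC41.5G-EVs, or 1.54-fold, where 2.79 percent of all genes were past the fold upwards and 0.885 percent downwards, 3.67 in all. This last difference was 0.35 after quantile normalization and 0.57 with olfactory centring, under 1.5-fold in both.

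Ftl1 differed in the same direction in platelets with CTC41.5G-EVs, by 0.47 or 1.38-fold, and by 0.04 with CTC41-EVs. The probes shared with other genes gave 0.50 and 0.39 with CTC41.5G-EVs and 0.12 and 0.04 with CTC41-EVs. Ncoa4 differed by -0.01 and -0.12 with the 2 EV types, Aco1 by 0.05 with each, Slc11a2 by 0.21 and 0.10, and Hmox1 by -0.24 and -0.04, with CTC41.5G-EVs first. The 4 genes at the level named had a median of 0.26 with CTC41.5G-EVs and 0.048 with CTC41-EVs, against 0.01 and -0.06 for all genes at that level. The summed linear signal of the 13 platelet markers with a probe was 18179 with PBS, 20036 with CTC41-EVs and 25852 with CTC41.5G-EVs. Pf4 and Ppbp set the order of the first pair, since the other 11 summed to 8566, 7502 and 10455, all 11 being below PBS with CTC41-EVs and above PBS with CTC41.5G-EVs. The erythroid sum was 1786, 1661 and 1757. Their part in the Fth1 difference was not tested.

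In progenitors, Fth1 lay below PBS with both EV types, by -0.51 with CTC41-EVs and -0.37 with CTC41.5G-EVs, and 0 genes of the 5 were past 1.5-fold. Among the 10858 genes at that level the percentage past the fold was 3.09 higher and 0.101 lower with CTC41-EVs, 3.2 in all, and 5.47 higher and 0.746 lower with CTC41.5G-EVs, 6.22 in all. Most genes past the fold were thus higher, and 0.286% of all genes were as far below PBS as Fth1 with CTC41-EVs. After quantile normalization this Fth1 difference was -0.59, past 1.5-fold.

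Ftl1 lay above PBS in progenitors, by 0.24 with CTC41-EVs and 0.48 with CTC41.5G-EVs. The 3 Ftl1 probes were alike in direction and unlike in size. The probe shared with Ftl2 gave 0.39 and 1.05, and the probe shared with Mir692-2b gave 0.40 and 0.99. With CTC41.5G-EVs both thus passed 1.5-fold where the probe naming only the symbol Ftl1 did not. Slc11a2 differed by -0.03 and 0.15, Ncoa4 by 0.13 and 0.08 and Aco1 by 0.06 and -0.02, with CTC41-EVs first. Between the EV types the highest member difference in progenitors was 0.24, for Ftl1, and the lowest -0.31, for Hmox1, with 0 of the 5 genes at that level past the fold against 0.608 percent of all genes higher and 0.783 percent lower, 1.39 in all.

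**Figure D4:**
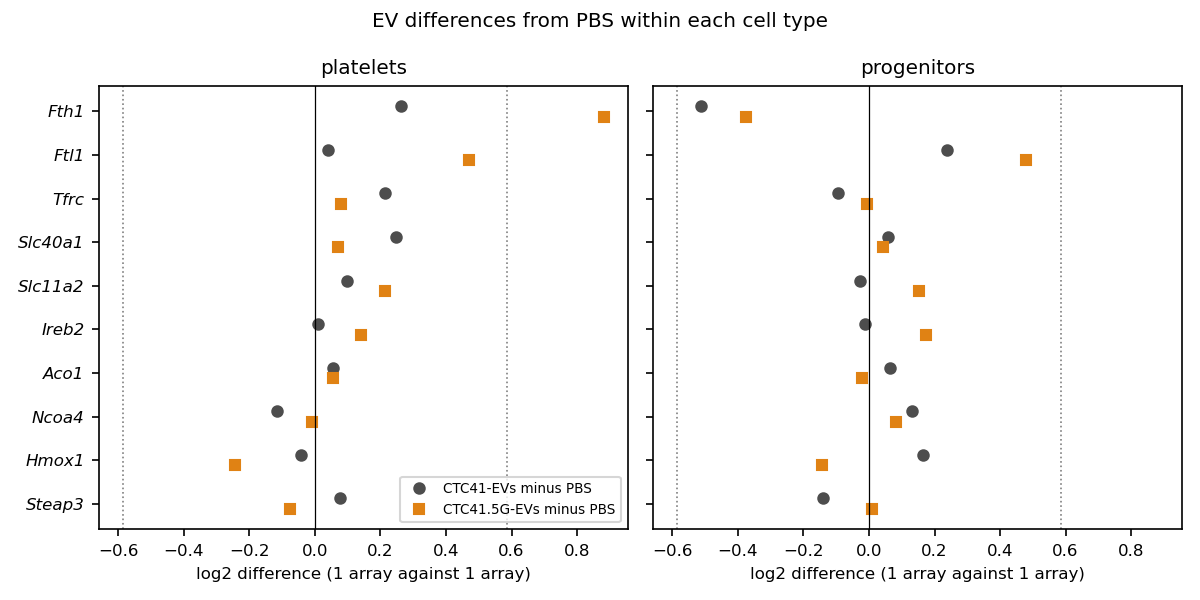
Log2 difference from the PBS array (x axis) for each of the 10 genes, in platelets (left) and progenitors (right), with CTC41-EVs as circles and CTC41.5G-EVs as squares. Each point is 1 array minus 1 array, with no error, and dotted lines mark 1.5-fold. Fth1 lies to the right of 0 in platelets and to the left in progenitors, and Ftl1 to the right in both.

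**Figure D5:**
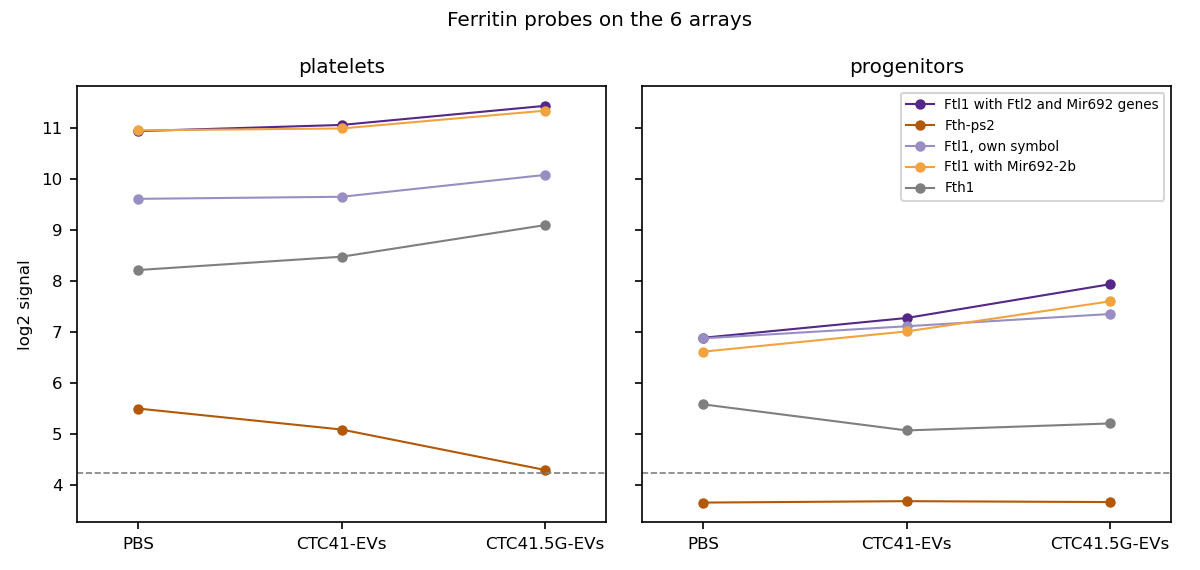
Log2 signal (y axis) of the 3 probes that name Ftl1, of the Fth1 probe and of the pseudogene probe Fth-ps2 on the platelet arrays (left) and the progenitor arrays (right), by treatment. Each point is 1 pooled array and the dashed line is the floor of 4.23. The Ftl1 probes are highest with CTC41.5G-EVs in both cell types, whereas Fth1 is highest with PBS in progenitors.

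EV effects averaged over both cell types could be tested, with the cell types in place of replicates. limma called 0 of the 8 genes against PBS with either EV type, and 0 in the comparison of the EV types. Of all 18875 genes it called 0.0 percent in each, and the genes with p below 0.05 before adjustment numbered 577, 1171 and 1157. Among the 8 genes, 0, 0 and 1 had such a p, the last being Hmox1. Ftl1 stood 0.47 (SE 0.21) above PBS with CTC41.5G-EVs (limma, adjusted p = 0.795), with both cell types higher, and 0.14 (SE 0.21) above with CTC41-EVs. Fth1 averaged 0.25 (SE 0.28) with CTC41.5G-EVs (limma, adjusted p = 0.895) and -0.12 (SE 0.28) with CTC41-EVs, its cell types having opposite signs. Hmox1 was at -0.26 (SE 0.11) between EV types (unadjusted p = 0.0453, limma, adjusted p = 0.805), lower with CTC41.5G-EVs in both cell types. Its signal was low, from 4.37 to 4.94 over the 6 arrays, near the floor of 4.23. The other 6 genes beside the ferritins lay between -0.03 and 0.15 with CTC41-EVs and between -0.19 and 0.18 with CTC41.5G-EVs. That no gene was called does not show that EVs left these genes as they were.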

How the data were processed

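The deposited table holds 1 log2 signal per probe and array, from 0.23 to 14.06, for 72688 probes. The authors summarised them in Affymetrix Expression Console 1.4.1.46 per the submitters' processing notes, but the series text speaks of MAS5.0, so the scaling between arrays is unsettled. No genome build was stated. Arrays have no read depth, and precision is limited by their number. Probes naming 1 symbol (30604) were used, and 2146 naming several and 39938 naming none were left out, except the shared Ftl1 probes, given separately. Of the former, 22818 matched RefSeq by Entrez identifier. A gene took its probe with the highest mean. Values were used as deposited, with no pseudocount, in limma 3.58.1 (R 4.3.3) with additive terms for cell type and treatment (2 residual degrees of freedom, intensity trend) and Benjamini-Hochberg adjustment over all genes tested. Treatment effects unlike between cell types fall into the residual beside array noise, and p-values measure only the spread between these pools. SD is over the 3 arrays of a cell type, which differ in treatment. The method was tested on simulated data with the same noise for every gene and 200 genes changed. The simulation had no shift between arrays and no treatment effect, so it does not test the scaling. The genes, lists, thresholds and alternatives were chosen with earlier results of these data known. All 10 genes are named, as are, of the 5 further lists together, the 10 called higher and the 10 called lower with the largest differences; of the marker lists, the rule took the 3 genes with the highest mean in each cell type. Pcbp1, Pcbp3, Pcbp4, Skp1a, Cul1, Iscu, Glrx5, Fbxl5 and markers outside that rule were added after their values were seen. Marker lists were of platelets, erythroid cells, macrophages and monocytes, neutrophils, B cells and stem and progenitor cells. Of the B cell markers 3 of 6 tested were called lower in platelets and 0 higher. Of the stem and progenitor markers 2 of 9 were called lower and 1 higher, and of the platelet markers 13 of 13 higher. The shares over all genes tested were 25.7 percent lower and 16.2 percent higher. Alternatives were 3 other scalings, no floor and a floor at the 75th percentile, no treatment term, no intensity trend, the mean of a gene's probes, leaving out each array and, chosen after seeing the data, the shared Ftl1 probe and marker sums without their brightest genes.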

Additional observations from a re-analysis of the deposited data

Results flagged for a closer look

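Fth1 lay above PBS on both EV arrays of platelets and below PBS on both EV arrays of progenitors. The effect in platelets minus that in progenitors was 0.77 on the log2 scale with CTC41-EVs and 1.26 with CTC41.5G-EVs. Tfrc showed the same pattern of signs at 0.31 and 0.087, all of its arrays being below the floor. Ncoa4 showed the opposite pattern at -0.25 and -0.091. With 1 array per group these differences between the cell types were not tested, and both EV comparisons of a cell type share 1 PBS array.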

How the results depend on the processing

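Of the 10 genes, 3 were called higher in platelets in each setting run except olfactory centring, where 4 were, and 2 were called lower except after quantile normalization, with equal medians, with olfactory centring and with the floor at the 75th percentile, where 0 were. In the last of these Slc11a2 and Steap3 were no longer tested. Slc40a1 reversed to 0.084, 0.085 and 0.43 in the 3 rescalings, Hmox1 to 0.095, 0.11 and 0.45, and with olfactory centring Steap3 reversed to 0.040, Erfe to 0.055, Abcb8 to 0.056 and Tfr2 to 0.066. The further iron genes called higher numbered 15, and 34 with olfactory centring, and those called lower 11, against 3, 2 and 1 in the rescalings and 7 with the higher floor. Over all genes 3063 were called higher, against 4673 with equal medians and 7609 with olfactory centring, and 4854 lower, against 2282, 1911 and 1033 in the rescalings and 2356 with the higher floor. The cause of these shifts beyond the scaling itself was not tested. Leaving out 1 array gave 3 members higher and 2 lower each time, and 13 to 16 further iron genes higher and 10 to 12 lower. Over all genes 2838 to 3211 were higher and 4168 to 5307 lower. These settings are not separate checks. With the treatment term, leaving out either array of a treatment gave the same cell type difference, from 2 arrays per cell type and 1 residual degree of freedom. For Fth1 it was 3.65 without PBS, 3.27 without CTC41-EVs and 3.02 without CTC41.5G-EVs, whichever cell type lost the array. The gene past the fold in platelets between the EV types, Fth1, was lost (0 genes) after quantile normalization and with olfactory centring. In progenitors 1 gene passed for CTC41-EVs after quantile normalization, and with Ftl1 read from the shared probe 1 gene passed for CTC41.5G-EVs against PBS and 1 against CTC41-EVs. In the remaining 111 comparisons of a count with its alternative the count stayed within 1.5 times. These include comparisons of 0 with 0, such as the members called for EV effects over both cell types, which were 0 in every setting. No paired analysis was possible because the labels give no replicate numbers; the treatment term takes their place, and dropping it changed no call of the 10 genes. Signals below or near the floor limit Tfrc, Ireb2, Slc40a1, Steap3 and Hmox1, and Slc11a2 in platelets.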

Other observations

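The probe named for the ferritin heavy chain pseudogene Fth-ps2, singled out after its values were seen, ran opposite to Fth1 on the platelet arrays. It stood at 5.49 with PBS, 5.08 with CTC41-EVs and 4.29 with CTC41.5G-EVs, where Fth1 stood at 8.21, 8.47 and 9.09. In progenitors it lay at 3.65, 3.67 and 3.66, below the floor. With 1 array per group this contrast has no replicate check.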
